A study of Homo sapiens with 12 samples.

Results

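The genes described here are 10 members of the interleukin-1 (IL-1) family and its immediate machinery: the cytokines IL1A, IL1B, IL33 and IL18, the antagonist IL1RN, the receptor chains IL1R1, IL1RAP and IL1RL1, the protease CASP1 and the kinase IRAK2. They were taken by symbol from a table of RNA-seq counts for 62069 genes. All 10 were found, and 8 of them passed the expression filter; IL1RN and IL18 did not. The table covers IMR90 ER:RAS cells, human lung fibroblasts with a RAS protein fused to the hormone-binding part of the estrogen receptor, which 4-hydroxytamoxifen (4OHT) switches on to bring about oncogene-induced senescence (OIS). There were 4 groups of 3 libraries, all at passage 13 and day 5: non-induced cells, induced cells (100 nM 4OHT), and induced cells carrying either shXPO7_3 or shXPO7_5, short hairpin RNAs against the nuclear transport receptor XPO7. All groups carry ER:RAS; in the study, cells without an XPO7 hairpin carried a control vector. Whether the triplicates are separate cultures is not stated, so the spread behind each p-value may be technical, and in bulk RNA a change in the number of expressing cells and a change in RNA per cell cannot be told apart.

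IL-1 alpha and IL-1 beta bind the receptor IL1R1, which then recruits the accessory chain IL1RAP. The paired receptor signals through MyD88 and kinases of the IRAK family to NF-kB and MAP kinases, and so switches on chemokines, IL-6 and matrix proteases. IL1RN encodes a receptor antagonist that occupies IL1R1 without signalling. IL-33 is a nuclear alarmin that signals through IL1RL1 (ST2) with the same accessory chain, IL-18 has receptor chains of its own, and caspase-1 is the inflammasome protease that cuts the IL-1 beta and IL-18 precursors into active cytokines. In senescent fibroblasts, IL-1 alpha is known as an upstream part of the senescence-associated secretory phenotype (SASP).

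IL1A, IL1B and IL1RN lie in 1 cluster on chromosome 2, and the receptor genes IL1R1 and IL1RL1 lie in another on the same chromosome. In the GRCh38 annotation of GENCODE release 29, IL1A (ENSG00000115008) spans 112773915 to 112784590 on the minus strand, IL1B (ENSG00000125538) 112829751 to 112836903 on the minus strand and IL1RN (ENSG00000136689) 113107214 to 113134016 on the plus strand. Promoter windows of these 3 genes are printed because IL1A and IL1B carried the largest rises among the members, while the antagonist beside them stayed at the limit of detection. Each window holds 250 bases before a RefSeq transcript start and 50 bases from it onward on GRCh38.p14, and reads 5′ to 3′ on the strand of the gene. The IL1A window is chr2:112784444-112784743 (minus strand), the IL1B window chr2:112836730-112837029 (minus strand) and the IL1RN window chr2:113117721-113118020 (plus strand). Capitals mark matches to the AP-1 letters TGANTCA in IL1A and IL1RN and to the C/EBP letters TTGCNNAA in IL1B.
IL1A promoter: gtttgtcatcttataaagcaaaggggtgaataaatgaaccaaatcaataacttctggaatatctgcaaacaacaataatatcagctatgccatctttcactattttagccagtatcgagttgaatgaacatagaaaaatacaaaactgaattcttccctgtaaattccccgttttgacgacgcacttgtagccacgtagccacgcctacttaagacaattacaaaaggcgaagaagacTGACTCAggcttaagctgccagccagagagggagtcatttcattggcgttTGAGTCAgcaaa
IL1B promoter: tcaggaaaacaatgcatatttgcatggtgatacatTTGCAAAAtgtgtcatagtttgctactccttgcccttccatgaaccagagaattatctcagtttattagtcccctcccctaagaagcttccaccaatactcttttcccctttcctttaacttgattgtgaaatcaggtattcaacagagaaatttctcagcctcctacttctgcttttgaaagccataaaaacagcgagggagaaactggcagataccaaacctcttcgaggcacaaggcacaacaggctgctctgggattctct
IL1RN promoter: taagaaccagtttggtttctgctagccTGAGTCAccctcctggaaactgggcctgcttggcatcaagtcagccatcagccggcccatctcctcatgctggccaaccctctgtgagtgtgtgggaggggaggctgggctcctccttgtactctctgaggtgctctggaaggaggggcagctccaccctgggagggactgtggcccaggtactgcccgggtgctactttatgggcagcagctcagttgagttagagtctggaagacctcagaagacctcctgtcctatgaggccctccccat
Counting the start as position 0, the AP-1 letters began at -12 and 38 in IL1A and at -223 in IL1RN, and the C/EBP letters began at -215 in IL1B. AP-1 is the factor family downstream of RAS and MAP kinases, and C/EBP factors are known regulators of inflammatory genes. Both strands were searched, and the 2 motifs did not overlap. Windows were on hand for 8 of the 10 members (16 windows; none for CASP1 or IL18). Other matches were AP-1 letters at -191 in 1 window of IL1RL1, C/EBP letters at 34 in 1 window of IL1R1, and the same AP-1 pair in a second IL1A window. IL1RN also had windows at chr2:113127239-113127538 and chr2:113127348-113127647, and these held no match. The NF-kB consensus, searched by name, had no match in the 16 windows, which says only that those letters are not in these stretches. Of 35116 promoter windows of this length in RefSeq, 7.71% held the AP-1 letters, 10.5% the C/EBP letters and 11.3% the NF-kB consensus.

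The libraries held 28534141 to 60397769 counts each. XPO7, the target of the hairpins, was at 129.3 to 143.8 CPM (library-scaled counts, by TMM) in the 6 libraries without a hairpin. It was at 26.4 to 28.7 CPM in the 3 shXPO7_3 libraries (log2 fold change against induced -2.30 ± 0.0739 SE, adjusted p = 1.24e-08) and at 50.8 to 54.0 CPM in the 3 shXPO7_5 libraries (-1.39 ± 0.0716 SE, adjusted p = 3.27e-06, both by edgeR's quasi-likelihood test). Every adjusted p given here comes from that test, with Benjamini-Hochberg adjustment over all 15284 genes tested, and a gene is called at an adjusted p under 0.05. The 8 fibroblast markers summed to 24020 to 27880 CPM in non-induced and 16700 to 18150 in induced libraries. They summed to 17390 to 21340 CPM with shXPO7_3 and 18980 to 21790 with shXPO7_5. Single markers varied, with DCN at 2357 to 42314 counts. The 10 monocyte and macrophage markers summed to 1.08 to 2.54 CPM (1.08 to 1.39 in non-induced and 1.84 to 2.54 in the 4OHT-treated libraries), with PTPRC at 0 to 2 counts. All 6 lymphoid markers had at most 1 count, and the endothelial markers PECAM1 and CDH5 and the epithelial markers KRT5 and KRT14 were at 0. The other lists summed to 0.674 to 15.1 CPM (mast cell, mainly KIT), 8.18 to 14.9 (endothelial, mainly TEK and VWF) and 1.72 to 6.86 (epithelial), each with its highest level in non-induced. Of the knockdown libraries, 3 stood apart: in shXPO7_5 B, shXPO7_5 T and shXPO7_3 T, the log2 ratio of each gene to the induced mean rose with the GC content of its transcript (Spearman correlation across genes of 0.764, 0.588 and 0.554), against -0.336 to 0.301 in the other 6 4OHT-treated libraries. The main results of the hairpin comparisons are also given without these 3 libraries or after correcting for transcript GC content and length. Leaving them out keeps 2 libraries of shXPO7_3 and 1 of shXPO7_5, which is then assumed to vary like the other groups, and calls 14 genes in all for shXPO7_3, 1 for shXPO7_5 and 0 between the hairpins, so a call missing there says little.

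With RAS off, IL1R1, IRAK2, CASP1 and IL1RAP were expressed, while the cytokines and the receptor chain IL1RL1 were close to silent. Per kilobase of exon, non-induced cells had 8.08 ± 0.546 CPM per kb of IL1R1, 5.01 ± 0.544 of IRAK2, 4.67 ± 0.487 of CASP1 and 0.681 ± 0.143 of IL1RAP (SD, n = 3 each). IL1A stood at 0.0952 ± 0.0525 CPM per kb and IL1B at 0.0829 ± 0.0387, which do not differ beyond their spread. IL1RL1 was at 0.0195 ± 0.0089 CPM per kb. After induction the order turned over: IL1B led at 44.2 ± 0.299 CPM per kb, followed by IL1A at 14.4 ± 0.697, IRAK2 at 7.53 ± 0.202 and IL1R1 at 6.88 ± 0.222. CASP1 came next at 1.44 ± 0.176 CPM per kb, then IL1RAP at 1.10 ± 0.0350, with IL33 at 0.149 ± 0.00690 and IL1RL1 at 0.0527 ± 0.00879 (SD, n = 3 each). IL1A and IL1B together took 0.263 to 0.679% of the counts on the 10 members in non-induced libraries and 63.4 to 64.6% in induced libraries. The ratio of IL1B to IL1A per kilobase moved from 0.784 to 1.14 in non-induced to 2.88 to 3.19 in induced libraries, with no overlap between the groups.

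**Figure D1:**
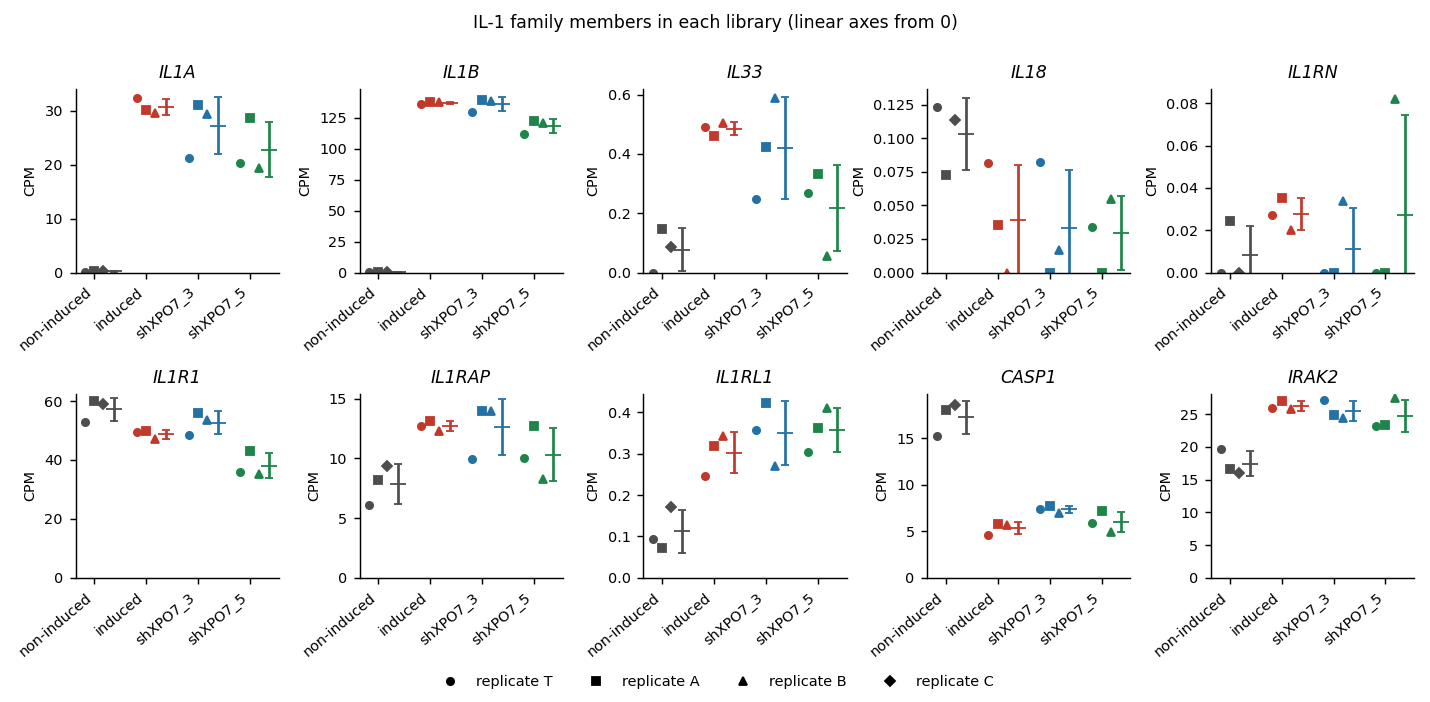
CPM of each of the 10 members (vertical axes, linear from 0) in every library of the 4 groups (horizontal axes); points are libraries, with shape for the replicate letter, and the bar beside them is the mean with its SD (n = 3). IL1A and IL1B lie at 0.0927 to 0.389 CPM in non-induced libraries and at 19.4 to 139.5 CPM in the others, CASP1 is highest in non-induced, and IL1RN and IL18 have at most 4 counts in any library.

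Induction of RAS was the first comparison, and it asks how the family differs between ER:RAS cells without and with 4OHT at day 5. Every library with active RAS was also treated with 4OHT, so the drug and RAS cannot be told apart. IL1A rose 143.6-fold and IL1B 509.6-fold from a few counts per library, IL33 and the receptor chains IL1RL1 and IL1RAP rose, the kinase IRAK2 rose, and CASP1 fell to a level 3.23-fold lower. Of the 8 members tested, 7 were called, 6 higher and 1 lower, where 50.9% of all genes tested were called (24.8% higher and 26.1% lower). The median log2 fold change of the 8 was 1.06, against -0.0068 over all genes. IL1A, IL1B, IL33 and IL1RL1 were under the filter's minimum of 0.283 CPM in at least 1 non-induced library and could pass only through 4OHT-treated libraries, so neither the count nor the median speaks for the family as a whole.

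IL1A, the alarmin form of IL-1 that is active without being cut, was at 0.0927, 0.316 and 0.198 CPM in non-induced T, A and C and at 32.4, 30.1 and 29.6 CPM in induced T, A and B. The non-induced libraries held 3, 13 and 7 counts of it and the induced libraries 850 to 1465, with no overlap. Its log2 fold change was 7.17 ± 0.294 SE (95% interval 6.53 to 7.81, adjusted p = 1.27e-09). IL1B, the secreted form that needs cutting, was at 0.154, 0.389 and 0.227 CPM in non-induced and at 135.9, 137.6 and 137.3 CPM in induced libraries. The 3 induced libraries lay within 2 CPM of each other, and the log2 fold change was 8.99 ± 0.158 SE (95% interval 8.65 to 9.34, adjusted p = 4.42e-12). Over the same groups the 10 monocyte and macrophage markers summed to 1.08 to 1.39 CPM in non-induced and 2.02 to 2.21 CPM in induced libraries. Over all libraries CSF1R had 11 to 48 counts, FCER1G 6 to 32 and LYZ 6 to 28, and the other 7 markers had at most 6. Their part in the cytokine levels was not tested. These rises stayed called in each alternative analysis, at 6.86 to 7.66 for IL1A and 8.76 to 9.44 for IL1B.

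IL33 was scarce throughout. It had 0, 6 and 3 counts in non-induced T, A and C (0, 0.146 and 0.0850 CPM) and 18, 13 and 25 in induced T, A and B (0.492, 0.461 and 0.504 CPM). The groups did not overlap, and the log2 fold change was 2.53 ± 0.651 SE (95% interval 1.11 to 3.95, adjusted p = 0.00623). From the summed counts, 56 against 9, the ratio was 5.62 (exact 95% interval 2.76 to 12.9, counting error only). IL18 had 4, 3 and 4 counts in non-induced and 3, 1 and 0 in induced libraries, a ratio of summed counts, non-induced to induced, of 3.05 (exact 95% interval 0.903 to 13.1), so no difference was detectable at this depth. IL1RN, the antagonist, had 1 count over the 3 non-induced libraries and 3 over the 3 induced ones, both at or under a floor of 3 counts, and no fold is given. Its level of 0.026 CPM over the induced group compares with 30.3 for IL1A and 136 for IL1B on the same scale of summed counts.

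Among the receptors, IL1RAP and IL1RL1 rose and IL1R1 was not called. IL1R1, which binds the cytokine, was at 52.8, 60.0 and 58.9 CPM in non-induced T, A and C and at 49.3, 49.9 and 47.0 CPM in induced T, A and B. All induced libraries were below all non-induced ones, yet the log2 fold change of -0.23 ± 0.092 SE was not called (adjusted p = 0.0521). It was called, in the same direction, in 8 of 16 alternative analyses, among them after correction for GC content and length (-0.34, adjusted p = 0.000178). IL1RAP, the chain that IL1R1 and IL1RL1 share, rose from 6.09, 8.16 and 9.35 CPM to 12.7, 13.1 and 12.3 CPM. Its libraries did not overlap, and the log2 fold change was 0.69 ± 0.187 SE (95% interval 0.28 to 1.09, adjusted p = 0.00845). The ratio of IL1R1 to IL1RAP per kilobase was 10.3 to 14.2 in non-induced and 6.21 to 6.35 in induced libraries. IL1RL1, the receptor for IL-33, had 3, 3 and 6 counts in non-induced and 9, 9 and 17 in induced libraries, without overlap in CPM, and rose by 1.43 ± 0.371 SE (log2; 95% interval 0.63 to 2.24, adjusted p = 0.00639). IL1RL1 lies on chromosome 2 from 102311502 to 102352037 on the plus strand and overlaps IL18R1 on the same strand. IL1R1 overlaps the antisense gene IL1R1-AS1, IL1RAP overlaps 3 genes on its own strand (AC108747.1, GCNT1P3 and RN7SKP296) and IL18 overlaps AP002884.3 on the other strand, so the counts of these 4 members are uncertain where the strand and overlap settings of the counting are not given.

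CASP1, the protease that activates IL-1 beta, went the other way from its substrate. It was at 15.2, 18 and 18.6 CPM in non-induced T, A and C and at 4.59, 5.74 and 5.69 CPM in induced T, A and B. The groups lay far apart, with a log2 fold change of -1.69 ± 0.139 SE (95% interval -1.995 to -1.39, adjusted p = 7.27e-07). CASP1 shares near-identical sequence with CARD16, which also fell (-0.85), and reads could be split between them. IRAK2, a kinase that sustains signalling below the receptor, was at 19.6, 16.7 and 16.0 CPM in non-induced and 25.9, 27.0 and 25.7 CPM in induced libraries. All induced libraries were higher, and it rose by 0.59 ± 0.0966 SE (log2; 95% interval 0.38 to 0.80, adjusted p = 0.000266).

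**Figure D2:**
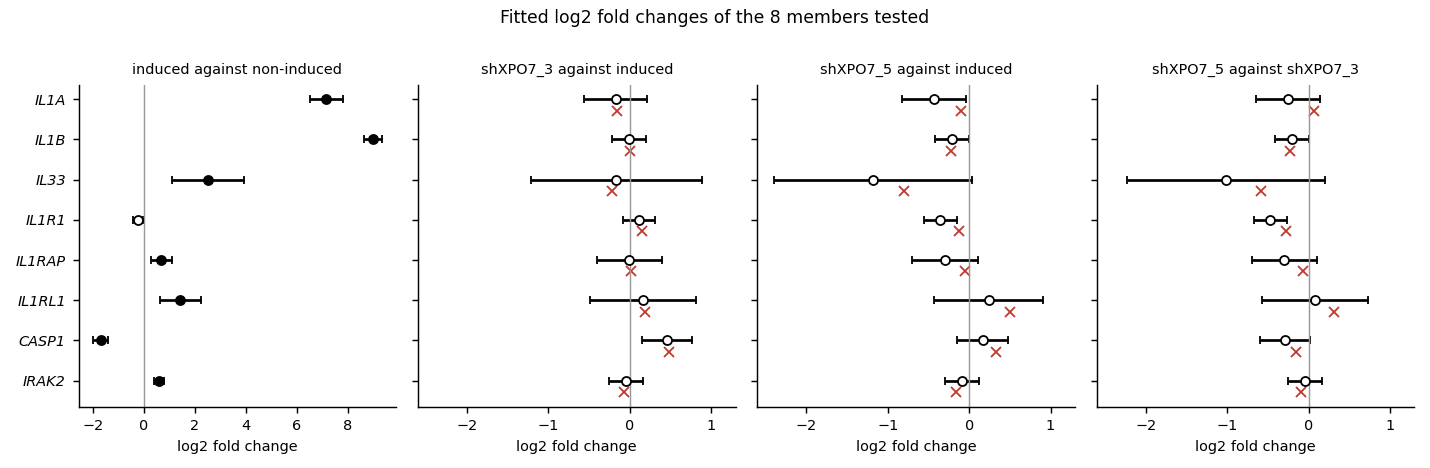
Fitted log2 fold changes (horizontal axes) of the 8 members tested in the 4 comparisons; circles with bars are estimates with 95% intervals, filled where the gene was called, and red crosses in the 3 knockdown panels are estimates after correction for GC content and length. On induction 7 members are called, from -1.69 for CASP1 to 8.99 for IL1B, and 0 in the 3 panels with a hairpin; the first panel has a wider axis than the others.

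The genes around the members were read from 4 lists of other pathway genes, 51 in all. Of these, 34 were tested on induction and 18 were called, 8 higher and 10 lower, a share of 52.9% beside the 50.9% of all genes, with a median log2 fold change of 0.09. Of the 34, 1 (IL1RL2, called higher) could pass the filter only with 4OHT-treated libraries. The processing and inflammasome genes held most of the lower calls: 9 of 11 tested were called (81.8%, beside 50.9% of all genes), 2 higher and 7 lower. Of all genes tested, 26.1% were called lower. GSDMD, whose product forms the pore through which IL-1 beta leaves the cell, fell by 1.40 on the log2 scale (adjusted p = 1.96e-07). NLRP1, an inflammasome sensor, fell by 1.09 (adjusted p = 1.35e-06) and PYCARD, the adaptor that joins sensors to caspase-1, fell by 0.60 (adjusted p = 0.00435). SERPINB9, a protease inhibitor, fell by 0.70, so the 7 hold a protease inhibitor as well as inflammasome parts. The rest of the 7 were CARD16 (-0.85), SERPINB1 (-0.54) and CAPN1 (-0.35). SERPINB1 and CAPN1 are named outside the rule after their values were seen. CASP4, an inflammatory caspase that senses cytosolic lipopolysaccharide, rose by 0.61 (adjusted p = 4.63e-06). The sensors NLRP3, AIM2, NLRC4 and MEFV did not pass the filter.

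Of the 8 other receptors and decoys, 5 were tested and 3 called (60.0%, beside 50.9% of all genes). IL1RL2, among the 3, was under the filter's minimum of 0.283 CPM in non-induced C (0.227 CPM). It could pass only with 4OHT-treated libraries, so the share does not speak for this list. IL1RAPL1, a relative of IL1RAP best known from neurons, rose by 2.46 (adjusted p = 2.62e-05), and IL1RL2, the IL-36 receptor, by 1.06 (adjusted p = 0.00575). SIGIRR, an inhibitory receptor of the family, fell by 1.05 (adjusted p = 2.48e-05). The decoy receptor IL1R2 did not pass the filter, nor did any of the 6 other ligands (IL36A, IL36B, IL36G, IL36RN, IL37 and IL1F10). Of 19 adaptors, kinases and brakes, 18 were tested and 6 called, 4 higher and 2 lower. That is 33.3%, a smaller share than the 50.9% of all genes. MAP3K8, a kinase of the MAP kinase branch, rose by 2.24 and PELI1, a ubiquitin ligase for IRAK proteins, by 1.57, while its relative PELI2 fell by 0.96 and IRAK4, the kinase that starts the cascade, fell by 0.76. CHUK and TAB3 rose by 0.58 and 0.55, with adjusted p of 0.047 and 0.022. In 16 alternative analyses CHUK was called in 9 and TAB3 in 12. Both lost the call without non-induced T, non-induced A, induced T or induced A, and CHUK also without induced B. The central adaptors MYD88 (-0.26, adjusted p = 0.0534) and TRAF6 (0.09, adjusted p = 0.423), named outside the rule after their values were seen, were not called.

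Among genes that IL-1 is known to switch on in fibroblasts, most of those tested were called higher. Of 30, 28 were tested and 25 called (89.3%, beside 50.9% of all genes), 21 higher and 4 lower, with a median log2 fold change of 2.66. Of the 28, 8 could pass the filter only through 4OHT-treated libraries, and the list was written with results of these data known, so its count is not independent evidence of its direction. CXCL8, the neutrophil chemokine IL-8, rose by 7.65 (adjusted p = 3.33e-11), CXCL3 by 6.54 and CXCL1 by 6.08. CSF3, a granulocyte growth factor, had no count in the 3 non-induced libraries and 436 in the induced ones, at least 131-fold higher against a floor of 3 counts over the group. CCL20 and CXCL2 each had 1 count in the non-induced group and 331 and 154 in the induced group, ratios of 299 (exact 95% interval 53.3 to 11800) and 139 (24.6 to 5530). The 4 lower genes were the adhesion molecule VCAM1 (-2.11), the transcription factor CEBPD (-0.71), the NF-kB brake TNFAIP3 (-0.41) and the mitochondrial enzyme SOD2 (-0.23), named here after their values were seen.

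**Figure D3:**
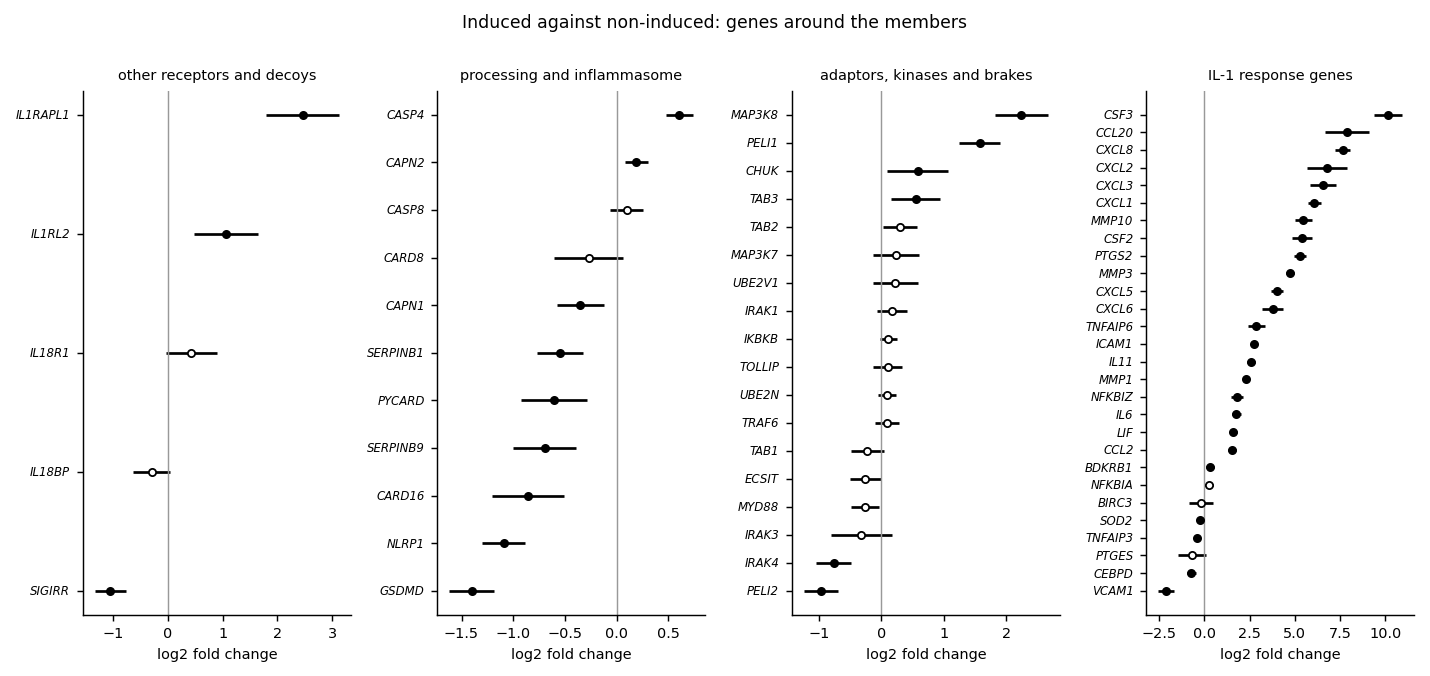
Log2 fold change of induced against non-induced libraries (horizontal axes, a separate scale in each panel) for the tested genes of 4 lists; points are estimates with 95% intervals, filled where the gene was called. Processing and inflammasome genes lie mostly below 0, with GSDMD lowest at -1.40, while 22 of the 28 response genes tested lie above 0.

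With shXPO7_3 in induced cells, no member passed the test: 0 of 8 were called, where 0.124% of all genes were called. By edgeR 1 member had an unadjusted p under 0.05, as did 6.41% of all genes. DESeq2 called 0 members, with 99 genes called in all. IL1B was at 129.7, 139.5 and 138.7 CPM in shXPO7_3 T, A and B, a log2 fold change against induced of -0.0099 (95% interval -0.22 to 0.20). IL1A was at 21.2, 31.1 and 29.3 CPM, with library T alone low, and its log2 fold change was -0.17 (95% interval -0.56 to 0.22). Without the GC-shifted libraries the difference was -0.02.

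CASP1 was the member with the unadjusted p under 0.05. It was at 7.38, 7.70 and 6.94 CPM in shXPO7_3 T, A and B, all above the 4.59 to 5.74 CPM of the induced libraries and well below the 15.2 to 18.6 CPM of the non-induced ones. The log2 fold change was 0.46 ± 0.14 SE (95% interval 0.15 to 0.76, unadjusted p = 0.00687 by edgeR, adjusted p = 0.401). After correction for GC content and length it was 0.49 and was called (adjusted p = 0.0326), in a fit that called 2.19% of all genes, and it was 0.45 without the GC-shifted libraries (adjusted p = 0.371). The other members were IL1R1 at 0.11 (95% interval -0.09 to 0.31), IL1RL1 at 0.16, IL33 at -0.17 (-1.22 to 0.88), IRAK2 at -0.04 and IL1RAP at -0.0033 (-0.40 to 0.39). IL33 and IL1RL1 had 9 to 35 counts in these 3 libraries, and their intervals are the widest of the 8 members.

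With shXPO7_5, no member was called, where 0.589% of all genes were called. IL1A, IL1B, IL1R1 and IL33 were lower than in induced cells in all 3 libraries. The share of all genes lower in that way is not given here, so this is no result about the family. By edgeR 3 members had an unadjusted p under 0.05 (IL1A, IL1B and IL1R1), as 21.6% of all genes did. DESeq2 called 1, IL1R1 (-0.34, adjusted p = 0.0324 by DESeq2). In all, DESeq2 called 450 genes where edgeR called 90. This comparison and the one with shXPO7_3 share the 3 induced libraries. The median log2 fold change of the 8 members was -0.26, against 0.0058 over all genes.

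IL1A was at 20.3, 28.7 and 19.4 CPM in shXPO7_5 T, A and B, all below the 29.6 CPM of the lowest induced library, and T and B well below A. Its log2 fold change was -0.43 ± 0.181 SE (95% interval -0.82 to -0.04, adjusted p = 0.216). IL1B was at 112, 122.3 and 120.5 CPM, also below every induced library, at -0.21 ± 0.0947 SE (95% interval -0.42 to -0.0047, adjusted p = 0.227). IL1R1 was at 36.1, 43.0 and 35.2 CPM, and was -0.36 ± 0.0925 SE (95% interval -0.56 to -0.15, adjusted p = 0.0982). IL33 had 8, 11 and 2 counts, at -1.18 ± 0.559 SE (95% interval -2.40 to 0.04, adjusted p = 0.239). IL1RAP was at 10.0, 12.7 and 8.24 CPM and overlapped the induced libraries (-0.30, 95% interval -0.70 to 0.10). IL1RL1 (0.24), CASP1 (0.17) and IRAK2 (-0.09) overlapped them too.

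Some of these levels differed between libraries with and without the GC shift. The transcripts of IL33 (35.1% GC), IL1A (39.1%), IL1RL1 (41.6%), IL1RAP (41.6%), IL1R1 (42.3%) and CASP1 (43.1%) lie below the first quartile of the genes tested (43.95%), while those of IL1B (48.2%) and IRAK2 (51.9%) lie near the median (49.46%). Among the 9 4OHT-treated libraries, IL1A was lowest in the 3 GC-shifted ones, at -0.66 in shXPO7_5 B, -0.59 in shXPO7_5 T and -0.53 in shXPO7_3 T as log2 ratios to the induced mean, against -0.10 to 0.08 in the other 6. IL1RAP had the same 3 libraries lowest (-0.62, -0.34 and -0.35, against -0.04 to 0.14). So did IL33, from few counts (-2.32, -0.74 and -0.84, against -0.48 to 0.26). IL1R1 and IL1RL1 did not follow that split. IL1R1 was low in shXPO7_5 B (-0.47) and T (-0.43) but at -0.01 in shXPO7_3 T, and IL1RL1 was at 0.39, 0.01 and 0.21 in shXPO7_5 B, shXPO7_5 T and shXPO7_3 T. IL1B did not follow it either, since shXPO7_5 A (-0.16) was close to shXPO7_5 B (-0.18).

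Across genes, the fold change of shXPO7_5 against induced correlated with GC content at 0.673 (Spearman, a description over genes). After correction for GC content and length, IL1A was at -0.10, IL1R1 at -0.12, IL1RAP at -0.05 and IL33 at -0.80, while IL1B was at -0.23 (adjusted p = 0.14). With the GC-shifted libraries left out, which keeps 1 library of shXPO7_5, IL1A was at -0.10, IL1R1 at -0.18, IL1B at -0.16 and IL33 at -0.55, and the median of the 8 members was -0.13. Without shXPO7_5 A, the library with the smallest shift, IL1A (-0.63, adjusted p = 0.0362) and IL1R1 (-0.45, adjusted p = 0.0238) were called, 2 of 8 members in a fit that called 23.0% of all genes.

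**Figure D4:**
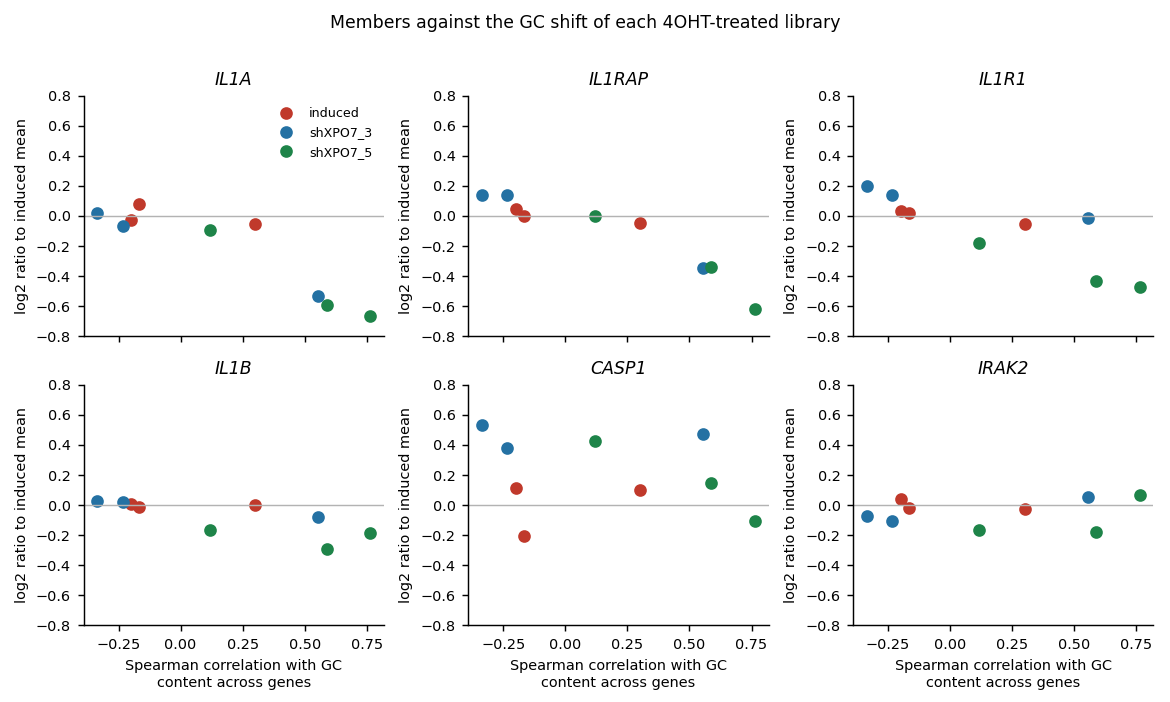
Log2 ratio of 6 members to their mean in induced libraries (vertical axes) in each of the 9 4OHT-treated libraries, against the Spearman correlation across genes between that library's log2 ratios and transcript GC content (horizontal axes); each point is 1 library. The 3 libraries at 0.554 and above are the lowest for IL1A (-0.53 to -0.66) and IL1RAP (-0.34 to -0.62), while IRAK2 stays between -0.18 and 0.07.

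In both knockdowns the lists around the members gave few calls. None of the 34 other pathway genes tested was called with either hairpin by edgeR (2 with shXPO7_3 and 5 with shXPO7_5 had an unadjusted p under 0.05, and DESeq2 called 0 and 1, the 1 being GSDMD). Of the 28 response genes tested, 0 were called with shXPO7_3 (6 with an unadjusted p under 0.05, and 2 called by DESeq2, MMP3 and MMP10). With shXPO7_5, edgeR called 1, 12 had an unadjusted p under 0.05, and DESeq2 called 2 (PTGS2 and SOD2). Over all genes, 6.41% with shXPO7_3 and 21.6% with shXPO7_5 had an unadjusted p under 0.05 by edgeR. DESeq2 called 99 genes in all with shXPO7_3 and 450 with shXPO7_5. The median log2 fold change of the 28 was -0.0007 with shXPO7_3 and -0.19 with shXPO7_5. The gene that edgeR called with shXPO7_5 was PTGS2, the cyclooxygenase that makes prostaglandins and a known target of IL-1. It fell by 0.83 ± 0.116 SE (log2, adjusted p = 0.0132). PTGS2 lost its call without induced T, induced A, shXPO7_5 T or shXPO7_5 B (-0.82 to -0.72) and was at -0.61 with the GC-shifted libraries left out. CXCL8 with shXPO7_5 was at -0.46 (adjusted p = 0.134), at -0.09 after the GC correction and at -0.22 with the GC-shifted libraries left out.

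Set directly against each other, the 2 hairpins gave 0 calls among the 8 members, where 0.0131% of all genes were called. By edgeR 1 member had an unadjusted p under 0.05, as did 11.9% of all genes. DESeq2 called 26 genes in all, 1 of them a member. In both cases the member was IL1R1. Its 3 shXPO7_5 libraries (35.2 to 43.0 CPM) lay below the 3 shXPO7_3 libraries (48.4 to 56.0 CPM), at -0.47 ± 0.0924 SE (log2; 95% interval -0.67 to -0.27, adjusted p = 0.31). It was -0.27 after correction for GC content and length (adjusted p = 0.109) and -0.35 with the GC-shifted libraries left out, where IL1B was at -0.19 and IL1A at -0.07. IL1B was also without overlap, at -0.20 (95% interval -0.41 to 0.0051), and IL1A was at -0.26 (-0.65 to 0.14) before and 0.06 after that correction. The fold changes of this comparison correlated with GC content at 0.695 across genes (Spearman). None of the 34 other pathway genes tested was called (6 with an unadjusted p under 0.05, 0 by DESeq2). Among the 28 response genes tested, edgeR called 1 (PTGS2), 11 had an unadjusted p under 0.05, and DESeq2 called 2 (PTGS2 and CXCL5).

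The genes whose log2 CPM followed each member most closely over the 12 libraries were sought among 10569 genes averaging 2 or more in log2 CPM. How much of each correlation comes from induction and how much from the GC shift was not tested. For IL1A they were TCIM, GABRA2 and CXCL8 (Pearson r of 0.998 to 0.999) and for IL1B CXCL8, CDKN2B and BPGM (0.998 each). For CASP1 they were TRIM5, MDM4 and NPR3 (0.980 to 0.985), for IRAK2 MIEF1, H2BC12 and CDKN1A (0.969 to 0.9746), and for IL1RAP MAPK6, ZNF24 and UBE2K (0.991 to 0.992). IL1R1, which changed least on induction, was followed by SESN1, AASDH and PYGO1 (0.943 to 0.949). IL33 was followed by BET1, MMGT1 and CACUL1 (0.964 to 0.972) and IL1RL1 by BFSP1, ENSG00000217801 and TFB1M (0.9498 to 0.962), both from few counts. These values are descriptions, and the points share libraries, depth and GC shift.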

How the data were processed

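RNA-seq covered 12 libraries of IMR90 ER:RAS cells, which the sample labels put in 4 groups. The authors deposited raw read counts per gene in 1 table, without normalization. From the submitters' processing notes, the tools were CASAVA 1.8.4, TopHat2 2.0.11 and featureCounts 1.18.0, with hg19 and GRCh37 as builds. Strand and multi-mapping settings were not given in the sources used here. Entries for spike-ins (92), all at 0, were left out. The labels write shXPO7_5, and that name is kept.

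In R 4.3.3, genes were filtered with filterByExpr in edgeR 4.0.16 (15284 kept), scaled by TMM and fitted by a quasi-likelihood model over all 12 libraries with 4 groups. The Benjamini-Hochberg adjustment ran over all genes tested. Standard errors and 95% intervals come from that fit. Depth was 28534141 to 60397769 counts per library; floors (3 counts over a group) and ratio intervals cover counting error only. GC content and exon lengths came from GENCODE 29 (GRCh38), matched by identifier, since the counts were made on another build. Promoters were from RefSeq (GRCh38.p14). The GC and length correction used a spline with 5 degrees of freedom per library as an offset. Alternatives were other scalings and filters, the replicate letter as a block, that correction, 2-group fits, leaving out libraries, a fold threshold of 1 on the log2 scale and DESeq2 1.42.0; leaving out the 3 GC-shifted libraries together was chosen after seeing the data. The scripts were tested on simulated data.

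Genes named were all 10 members, XPO7, up to 6 called genes per list with the largest change on induction, every listed gene called with a hairpin, and the 3 genes most correlated with each member. CARD17 had no entry under that symbol, and IKBKG was listed at 0 under its current identifier. The members and lists were chosen with earlier results of these data known.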

Additional observations from a re-analysis of the deposited data

Results flagged for a closer look

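PTGS2, a response gene of IL-1, differed between the 2 hairpins when they were compared directly: the log2 fold change of shXPO7_5 against shXPO7_3 was -0.95 ± 0.116 SE (adjusted p = 0.0246, edgeR's quasi-likelihood test). Its mean was 24.1 CPM with shXPO7_5 and 46.4 CPM with shXPO7_3, and the 3 libraries of each did not overlap. After correction for GC content and length the difference was -0.72 (adjusted p = 0.000535), and with the 3 GC-shifted libraries left out it was -0.79; that fit keeps 1 shXPO7_5 library, assumed to vary like the other groups, and calls 0 genes in all, so its missing call says little. It also lost its call without shXPO7_3 A, shXPO7_3 B, shXPO7_5 T or shXPO7_5 B (-0.93 to -0.83), each left out alone. No member of the family was called in that comparison.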

How the results depend on the processing

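On induction the 7 member calls held in each alternative that tested the gene, except that a required fold of 1 (log2) left 5, without IL1RAP and IRAK2 (the 2-group fit left IL1RL1 untested, and the filter of 1 CPM in 6 libraries left out IL1RL1 and IL33). Leaving out 1 library gave 7 to 8 calls, the added one being IL1R1 without non-induced T. Upper-quartile factors moved the median of all genes to -0.105 and IL1R1 to -0.33. Calls of other pathway genes fell to 7 with a log2 fold change of at least 1.

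With shXPO7_3 against induced, the GC and length correction, alone or with the replicate block, gave 1 member call (CASP1), 1 other pathway call (TOLLIP) and 3 response gene calls (MMP10, MMP3 and ICAM1), against 0 of each without it. In the same fits the share of all genes called rose from 0.124% to 2.19% (2.34% with the block). DESeq2 called 2 response genes, of 99 genes in all, and the fit without a filter called 1, with 0.0947% of all genes. With shXPO7_5 against induced, DESeq2 called 1 member, 1 other pathway gene and 2 response genes, of 450 genes in all. RLE factors, the filter of 1 CPM in 6 libraries and the GC correction, alone or with the block, each gave 1 other pathway call. In that order, these fits called 0.831%, 1.08%, 2.67% and 5.26% of all genes. Response gene calls, 1 in the analysis reported, were 4 without a filter, 2 with the replicate block, 2 with the GC correction, 4 with both, and 0 in the 2-group fit, with the fold threshold of 1 (log2) and with the GC-shifted libraries left out. Leaving out 1 library gave 0 to 2 member calls, 0 to 9 other pathway calls and 0 to 13 response gene calls, the highest values all without shXPO7_5 A, where 23.0% of all genes tested were called against 0.589% with it. For the direct comparison of the hairpins, DESeq2 called 1 member and 2 response genes, of 26 genes in all. Response gene calls were 2 without a filter, 2 with the block and the GC correction, 0 in the 2-group fit, 0 with a log2 fold change of at least 1, 0 with the GC-shifted libraries left out, and 0 to 1 with 1 library left out.

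Some values near 0 changed sign, none of them called. IL1B with shXPO7_3 was at 0.0059 by RLE factors, 0.0041 by DESeq2, 0.0237 with the GC-shifted libraries left out and -0.0288 to 0.0176 with 1 library left out. IL1RAP with shXPO7_3 was at 0.0125 by RLE factors, 0.0098 by DESeq2, 0.0164 with the GC correction, 0.0152 with the correction and the replicate block, 0.1418 with the GC-shifted libraries left out and -0.0858 to 0.1351 with 1 library left out, and with shXPO7_5 it was at 0.0045 with the GC-shifted libraries left out. IL33 with shXPO7_3 was at 0.0775 with the GC-shifted libraries left out and -0.5502 to 0.0768 with 1 library left out. Between the hairpins, IL1A was at 0.0608 with the GC correction and 0.0613 with the block as well, IRAK2 at 0.0016 by upper-quartile factors and -0.1241 to 0.0106 with 1 library left out, and IL1RL1 at -0.1044 to 0.226 with 1 library left out. The cause of these changes was not tested.

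Of 15 same-letter pairs of libraries, 8 had deviations from their group means that correlated above 0.1 (r of -0.234 to 0.589, median 0.108), as did 14 of 39 pairs with different letters (-0.62 to 0.512, median -0.077). These correlations do not settle whether the letters mark pairs, since the deviations may also hold the GC shift of single libraries. The replicate letter was not used as a block in the analysis reported, and fits with it are among the alternatives. Depth limits IL33, IL1RL1, IL18 and IL1RN, and the standard errors of the members in the comparisons with a hairpin ran from 0.0919 (IL1R1) to 0.559 (IL33).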

Other observations

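IL36RN, the antagonist of the IL-36 receptor, was singled out after its values were seen. It had no count in the 3 non-induced libraries and 10 counts over the 3 induced libraries (2 to 5 each), at least 3.01-fold higher against a floor of 3 counts over the group. It had 3 to 8 counts in each shXPO7_3 library and 1 to 5 in each shXPO7_5 library. Its receptor IL1RL2 was at 0.304 CPM in non-induced and 0.634 CPM in induced libraries on average. Of the 9 genes of the ligand cluster on chromosome 2, IL1A and IL1B alone had more than 8 counts in any library.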
